A study of Homo sapiens with 9 samples.

Results

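The genes described here are 10 members of the Notch pathway: the receptors NOTCH1, NOTCH2 and NOTCH3, the ligands JAG1, JAG2 and DLL1, the target genes HES1, HES4 and HEY1, and RBPJ, the DNA-binding factor of the pathway. They were taken by symbol from a table of read counts for 60649 genes, each member having 1 row. The 9 libraries came from MDA-MB-231, an established human triple-negative breast cancer line, in 3 groups of 3: cells with the control vector (PLKO-GFP in the sample titles, GFP-PLKO as genotype) and cells with either of 2 constructs against AHR, shAHR#2 and shAHR#3. AHR encodes the aryl hydrocarbon receptor, a ligand-activated transcription factor, and the series asked what its depletion changes. Every library carried the same treatment label, proliferation, and all cells grew in serum-supplemented medium without another agent named in the labels. By the study's methods for hairpins in general, cells were transduced with lentivirus and selected with puromycin, and survivors were pooled, so that each group was a transduced population rather than 1 clone. Nothing states that the replicates of a group were separate cultures, and the p-values then measure only the spread between these libraries, which may be technical.

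Notch receptors sit in the plasma membrane and are engaged by Jagged or Delta-like ligands on a neighboring cell. Ligand binding lets ADAM proteases and then gamma-secretase cut the receptor, and the freed intracellular domain joins RBPJ and a Mastermind protein on DNA, where genes of the HES and HEY families are switched on. Without the intracellular domain, RBPJ recruits corepressors. In the mammary gland the pathway takes part in cell fate decisions, and it has been studied widely in triple-negative breast cancer.

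Total counts ranged from 17407688 to 19509030 with PLKO-GFP, from 15991396 to 19112459 with shAHR#2 and from 19436825 to 20374460 with shAHR#3. AHR itself ranged over 114-121 CPM (read counts scaled to a common library total, with TMM factors) in control libraries, 40.4-42.5 CPM in shAHR#2 libraries and 44.5-52.1 CPM in shAHR#3 libraries. Its log2 fold change was -1.50 with shAHR#2 (edgeR adjusted p = 1.05e-25) and -1.31 with shAHR#3 (edgeR adjusted p = 4.95e-24). Of 12 epithelial markers, the keratins KRT8, KRT18, KRT7 and KRT19 were abundant, while PGR was at 0 in every library and KRT5 and KRT14 never exceeded 2 counts. ESR1 had at most 4 counts. The epithelial markers summed to 962-1020 CPM in control, 1110-1160 CPM in shAHR#2 and 1300-1390 CPM in shAHR#3 libraries. Its members did not move alike. In the same order, KRT7 averaged 229, 292 and 367 CPM and KRT19 99.8, 171 and 122 CPM. KRT18 averaged 304, 300 and 377 CPM. The surface markers were scarce, EPCAM at 6.62, 6.06 and 6.11 CPM and CDH1 at 0.909, 1.8 and 4.16 CPM. The 6 mesenchymal-like markers of this line (VIM, FN1, CD44, ZEB1, CAV1 and AXL) summed to 6600-6700, 10000-10300 and 8380-8420 CPM in that order. Among them CD44 went the other way, with means of 811, 692 and 578 CPM, and AXL averaged 1220, 1410 and 1260 CPM. The 12 markers of immune, endothelial, fibroblast and muscle cells summed to 16.2-20.0, 28.5-29.1 and 43.7-48.0 CPM. Of these, CD3E was at 0 in all libraries, 4 of 12 had at most 3 counts in any library, and the endothelial VWF and CDH5 were at 0 in the control and reached at most 9 and 12 counts with the constructs. PECAM1 averaged 2.40, 11.2 and 12.2 CPM and PDGFRB 8.20, 4.62 and 18.3 CPM. The immune marker PTPRC averaged 0.119, 1.38 and 1.00 CPM, with 1-33 counts in a library, and COL1A1 6.31, 10 and 11.3 CPM. These sums moved with the same groups as the Notch genes below, and their part in the results was not tested. In bulk RNA, fewer cells of a type and less RNA per cell cannot be told apart.

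Of the 10 genes, 9 had enough reads to be tested and DLL1 had not. With shAHR#2, 7 of the 9 were higher than in the control and 2 were lower, so 9 were called at an adjusted p under 0.05. Calls were frequent in this comparison: 65.8% of all 14274 genes tested passed, 32.6% as higher and 33.2% as lower. With shAHR#3, 7 of the 9 were called (6 higher, 1 lower), where 54.4% of all genes passed, 26.9% as higher and 27.5% as lower. For the mean of both constructs 9 were called (7 higher, 2 lower) against a background of 64.3%, of which 31.5% of all genes were higher and 32.9% lower. NOTCH1 and HES4 are among these 9, although neither was called with shAHR#3. The calls leaned to the higher side. The median log2 fold change of the 9 was 0.45 with shAHR#2, 0.60 with shAHR#3 and 0.53 for the mean. That of all genes tested was 0 in these comparisons. The 9 genes were chosen with earlier results of these data known, so this lean is a description.

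Changes of more than 2-fold were fewer. Called with an absolute log2 fold change of at least 1 were NOTCH3, JAG2, HEY1 and HES4 with shAHR#2 (4 of 9, background 11.8%), NOTCH3, JAG2 and HEY1 with shAHR#3 (3 of 9, background 6.73%) and the same 3 for the mean (background 8.25%). The levels of construct and control libraries did not overlap for 9 of 9 genes with shAHR#2 (background 68.2%), for 7 of 9 with shAHR#3 (background 58.7%) and for 7 of 9 when both constructs were set against the control (background 47%). NOTCH2, NOTCH3, JAG1, JAG2, HES1 and HEY1 were higher with both constructs, a pattern held by 21.9% of all genes, and RBPJ was lower with both. These 7 of 9 moved alike with each construct, as did 44.5% of all genes. The 2 comparisons share the control libraries.

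**Figure D1:**
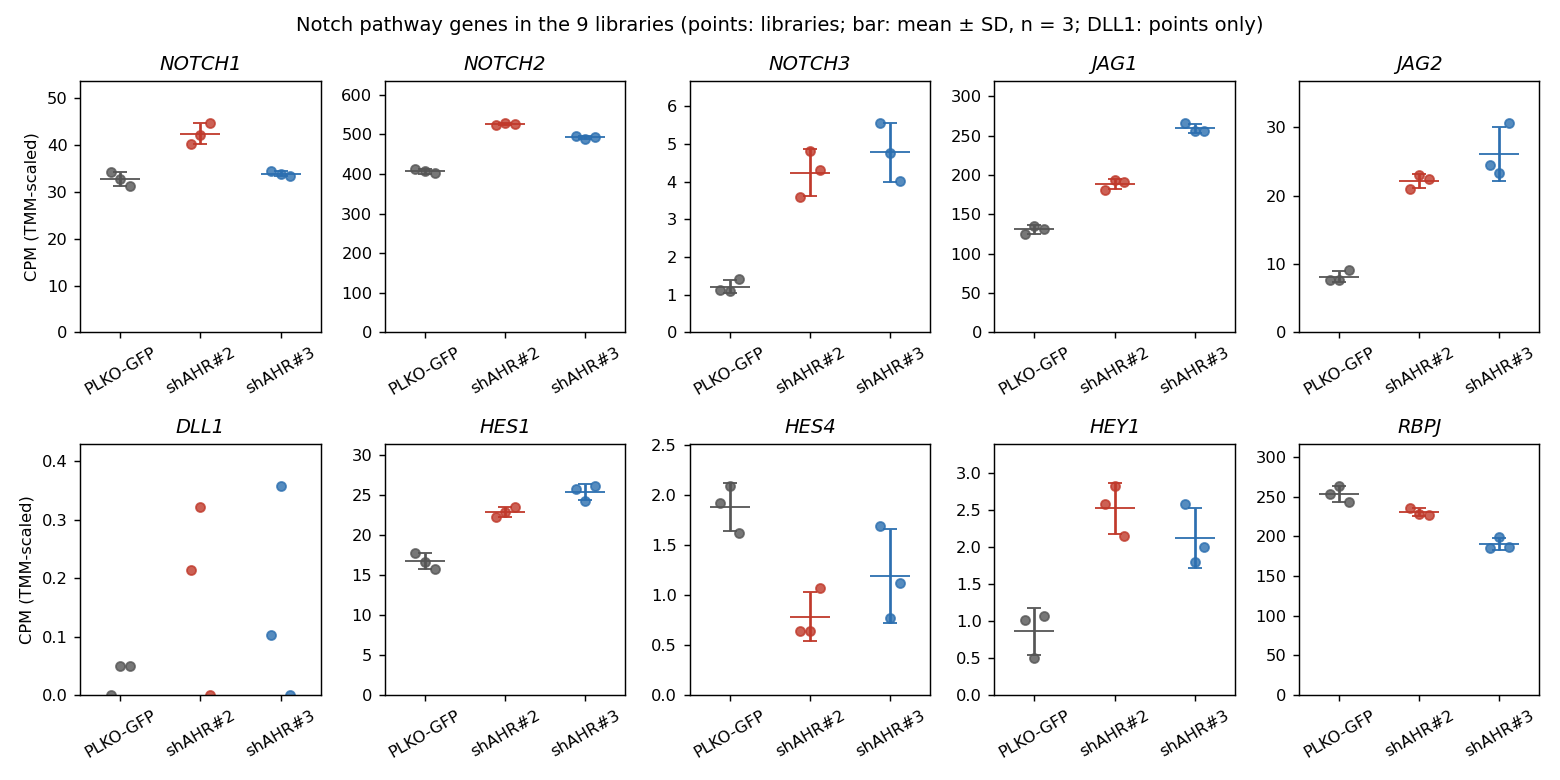
CPM (TMM-scaled, vertical axis from 0 in each panel) of the 10 Notch pathway genes in PLKO-GFP, shAHR#2 and shAHR#3 libraries; points are libraries and bars are the mean ± SD of 3, except for DLL1, which shows points only. JAG1 stands at 131, 189 and 259 CPM in the 3 groups with no overlap, NOTCH1 is higher with shAHR#2 than in the other groups, and RBPJ steps down from 254 to 230 and 190 CPM.

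NOTCH2 was the dominant receptor (ENSG00000134250.20, chromosome 1:119911553-120100779, minus strand, GRCh38). Its level was 413, 406 and 401 CPM in the 3 control libraries, 522, 529 and 526 CPM with shAHR#2 and 496, 488 and 494 CPM with shAHR#3. The 3 groups were fully separated. NOTCH2 rose by 0.37 ± 0.0249 (log2 ± SE) with shAHR#2 (edgeR adjusted p = 7.63e-16) and by 0.28 ± 0.0247 with shAHR#3 (edgeR adjusted p = 4.64e-12), that is 1.29-fold and 1.21-fold. The near-identical NOTCH2NL copies (NOTCH2NLA, NOTCH2NLB, NOTCH2NLC and NOTCH2NLR) summed to 76-98 counts in control, 127-148 in shAHR#2 and 110-119 in shAHR#3 libraries, or 1.04-1.63% of the NOTCH2 count, so a small part of these reads could be split between them.

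NOTCH1, the receptor altered most often in T-cell leukemia, lies at chromosome 9:136494433-136546048 on the minus strand (ENSG00000148400.13). The control libraries held 34.2, 32.8 and 31.2 CPM, the shAHR#2 libraries 40.3, 42.2 and 44.7 CPM, and the shAHR#3 libraries 34.5, 33.9 and 33.4 CPM. The shAHR#2 libraries stood above all others, while shAHR#3 overlapped the control. With shAHR#2 NOTCH1 rose 1.30-fold (log2 0.37 ± 0.0588, edgeR adjusted p = 8.21e-07). With shAHR#3 the ratio was 1.04, with an interval of 2 SE on either side from 0.955 to 1.13 (edgeR adjusted p = 0.476).

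NOTCH3, a receptor known from vascular smooth muscle, was scarce (ENSG00000074181.9, chromosome 19:15159038-15200995, minus strand). It had 20, 22 and 28 reads in the control libraries (1.13, 1.10 and 1.42 CPM), 67, 75 and 68 with shAHR#2 (3.59, 4.82 and 4.30 CPM) and 108, 93 and 82 with shAHR#3 (5.55, 4.76 and 4.00 CPM). Every construct library lay above every control library, and the constructs overlapped each other. The rise was 3.45-fold with shAHR#2 (log2 1.78 ± 0.214, edgeR adjusted p = 3.02e-09) and 3.90-fold with shAHR#3 (log2 1.96 ± 0.205, edgeR adjusted p = 2.03e-10). The 2 SE interval of the fold was 2.56 to 4.64 with shAHR#2 and 2.93 to 5.18 with shAHR#3, wider than for the abundant receptors.

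JAG1, the ligand whose loss causes Alagille syndrome, was the most abundant ligand (ENSG00000101384.12, chromosome 20:10637684-10673999, minus strand). Its level was 126, 136 and 131 CPM in the control, 181, 194 and 191 CPM with shAHR#2 and 266, 256 and 256 CPM with shAHR#3. The 3 groups did not overlap. JAG1 rose 1.44-fold with shAHR#2 (log2 0.53 ± 0.0339, edgeR adjusted p = 2.06e-16) and 1.98-fold with shAHR#3 (log2 0.985 ± 0.0327, edgeR adjusted p = 9.49e-25). An overlapping antisense long noncoding RNA had at most 8 counts in any library.

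JAG2, the second Jagged ligand, lies at chromosome 14:105140982-105168824 on the minus strand (ENSG00000184916.9). It stood at 7.74, 7.64 and 9.06 CPM in the control, at 21.0, 23.1 and 22.5 CPM with shAHR#2 and at 24.5, 23.3 and 30.7 CPM with shAHR#3. Each construct library was above every control library, and the highest value was replicate 3 of shAHR#3. JAG2 rose 2.72-fold with shAHR#2 (log2 1.44 ± 0.102, edgeR adjusted p = 3.63e-15) and 3.21-fold with shAHR#3 (log2 1.68 ± 0.0979, edgeR adjusted p = 2.92e-17).

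DLL1, a Delta-like ligand (chromosome 6:170282206-170306565, minus strand), was close to undetected. Its counts were 0, 1 and 1 in the control, 4, 5 and 0 with shAHR#2 and 2, 7 and 0 with shAHR#3. At least 1 library was at 0 in each group, and no difference was detectable at this depth. The filter on low counts removed DLL1 from the main fit, so no fold is given. Without that filter DLL1 was fitted and was called with neither construct. FAM120B overlaps DLL1 on the opposite strand and had 168-231 counts.

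HES1 is a basic helix-loop-helix repressor and the best known direct Notch target (ENSG00000114315.4, chromosome 3:194136148-194138732, plus strand). Its level was 17.8, 16.7 and 15.8 CPM in the control, 22.3, 22.9 and 23.5 CPM with shAHR#2 and 25.8, 24.3 and 26.2 CPM with shAHR#3, without overlap between the groups. HES1 rose 1.37-fold with shAHR#2 (log2 0.45 ± 0.0757, edgeR adjusted p = 2.7e-06) and 1.52-fold with shAHR#3 (log2 0.60 ± 0.0729, edgeR adjusted p = 6.42e-09).

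HEY1, a repressor of the Hairy/E(spl)-related family, lies at chromosome 8:79762371-79767857 on the minus strand (ENSG00000164683.18). It had 18, 10 and 21 reads in the control (1.02, 0.499 and 1.06 CPM), 48, 44 and 34 with shAHR#2 (2.57, 2.83 and 2.15 CPM) and 50, 35 and 41 with shAHR#3 (2.57, 1.79 and 2.00 CPM). All 6 construct libraries were above the 3 control libraries. The rise was 2.93-fold with shAHR#2 (log2 1.55 ± 0.278, edgeR adjusted p = 7.41e-06) and 2.47-fold with shAHR#3 (log2 1.31 ± 0.279, edgeR adjusted p = 0.000138). At these counts the 2 SE interval of the fold was broad, from 2.00 to 4.31 and from 1.68 to 3.64.

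HES4, a HES family member without a mouse ortholog, went the other way (ENSG00000188290.11, chromosome 1:998962-1000172, minus strand). It had 34, 42 and 32 reads in the control (1.92, 2.10 and 1.62 CPM), 12, 10 and 17 with shAHR#2 (0.644, 0.642 and 1.07 CPM) and 33, 15 and 23 with shAHR#3 (1.70, 0.768 and 1.12 CPM). The shAHR#2 libraries were all below the control, whereas replicate 1 of shAHR#3 lay within the control range. HES4 fell by 1.26 ± 0.32 on the log2 scale with shAHR#2 (edgeR adjusted p = 0.000768). With shAHR#3 its log2 fold change was -0.65 ± 0.284, just short of the threshold (edgeR adjusted p = 0.0512). That call turned on single libraries: without replicate 1 of shAHR#3 the value was -0.98 (edgeR adjusted p = 0.012), without replicate 3 of PLKO-GFP -0.75 (0.049) and without replicate 3 of shAHR#2 -0.65 (0.0492), and over all 14 alternatives the adjusted p ran from 0.012 to 0.255.

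RBPJ, the factor through which all Notch receptors act on DNA, fell with both constructs (ENSG00000168214.21, chromosome 4:26163455-26435131, plus strand). Its level was 253, 264 and 244 CPM in the control, 236, 228 and 227 CPM with shAHR#2 and 186, 199 and 186 CPM with shAHR#3. The groups were ordered without overlap. RBPJ fell by 0.14 ± 0.0318 on the log2 scale with shAHR#2 (edgeR adjusted p = 0.00024) and by 0.42 ± 0.0318 with shAHR#3 (edgeR adjusted p = 6.83e-14), that is to 0.908 and 0.750 of the control. Its processed pseudogenes had no counts.

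**Figure D2:**
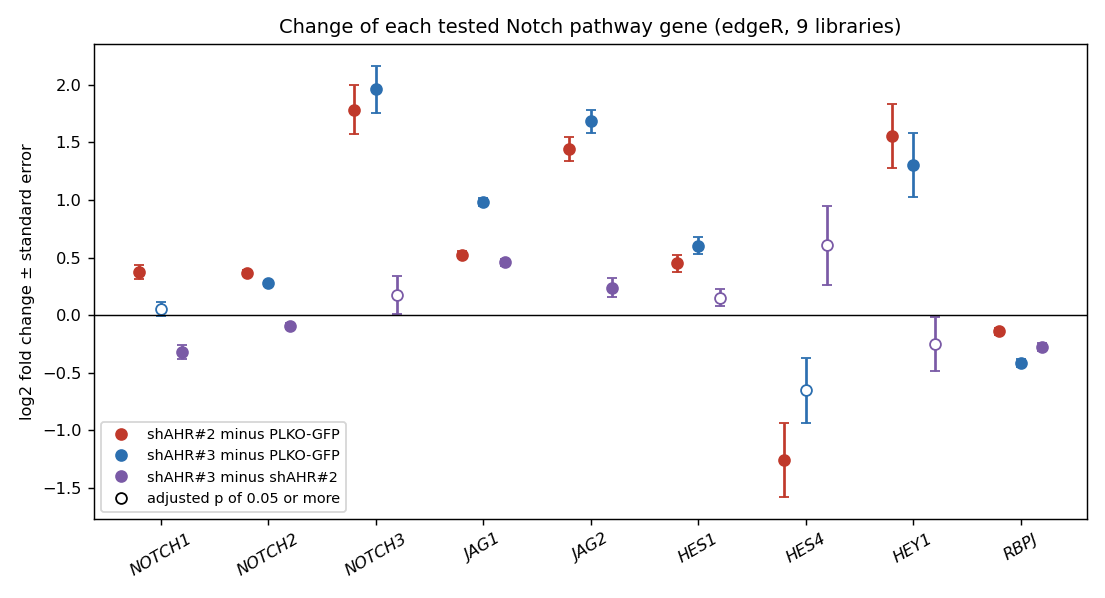
Log2 fold change ± standard error (vertical axis) of the 9 tested Notch pathway genes for shAHR#2 minus PLKO-GFP, shAHR#3 minus PLKO-GFP and shAHR#3 minus shAHR#2; open points have an edgeR adjusted p of 0.05 or more. NOTCH3, JAG2 and HEY1 lie above 1 with both constructs, RBPJ lies below 0 in all 3 comparisons, and HES4 is lower with a filled point for shAHR#2 alone.

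To show the DNA in front of the target genes, the 250 bases before the RefSeq start site of HES1 and HES4 (GRCh38.p14, read 5′ to 3′ on the gene's strand) are printed with each TGGGAA in capitals, TGGGAA being the core of the sequence that RBPJ binds. Both genes have the longer GTGGGAA at 1 of these places, which overlaps the shorter match.
HES1, chr3:194135898-194136147, plus strand: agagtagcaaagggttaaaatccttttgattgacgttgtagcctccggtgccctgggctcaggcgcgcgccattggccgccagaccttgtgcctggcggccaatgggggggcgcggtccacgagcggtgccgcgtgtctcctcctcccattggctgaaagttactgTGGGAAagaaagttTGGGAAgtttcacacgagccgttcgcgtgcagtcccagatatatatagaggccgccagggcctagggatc
HES4, chr1:1000098-1000347, minus strand: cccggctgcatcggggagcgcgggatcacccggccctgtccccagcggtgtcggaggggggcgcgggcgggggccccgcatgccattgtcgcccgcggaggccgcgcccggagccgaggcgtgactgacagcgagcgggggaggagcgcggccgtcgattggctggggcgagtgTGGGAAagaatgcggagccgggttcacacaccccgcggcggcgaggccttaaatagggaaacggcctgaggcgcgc
In HES1 the matches start 84 and 70 bases before the RefSeq start site, in HES4 76 bases before it. The RefSeq start of HES4 lies inside the gene span given above, whose upstream end is at 1000172. Part of the printed HES4 bases therefore lies within that span. RefSeq promoter windows of 300 bases (250 before and 50 after the start) were matched by symbol for 8 of the 10 genes, with 12 windows in all because RBPJ has several starts. Searched on both strands, TGGGAA was found in 3 of these 12 windows (1 each of HES1, HES4 and RBPJ) and in 24% of all 35116 windows, about the same share. GTGGGAA was found in the same 3 of 12 and in 6.25% of all windows. GCGTG, the core of the AHR-ARNT binding sequence, was found in 8 of the 12 windows and in 36.5% of all windows, with 4 matches for JAG1 and none for NOTCH2. The NOTCH2 window (chromosome 1:120069613-120069912) lies inside the gene span given above and not at its upstream end. A match describes these letters and is not a measured binding site. The genes with RBPJ core letters in the window moved in unlike directions, HES1 higher and RBPJ lower with both constructs.

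The constructs were also set against each other. Of the 9 genes, 5 passed the direct test of shAHR#3 against shAHR#2, in 2 cases as higher with shAHR#3 and in 3 as lower, where 42.3% of all genes differed, 21.9% as higher and 20.4% as lower. None of the 9 reached an absolute log2 difference of 1, which 3.71% of all genes did, and 6 of 9 had no overlap between the constructs (background 49.6%). Both Jagged ligands were higher with shAHR#3, JAG1 by 0.46 ± 0.032 on the log2 scale (edgeR adjusted p = 8.49e-15) and JAG2 by 0.24 ± 0.0852 (edgeR adjusted p = 0.0208). JAG1 and JAG2 are the 2 of 9 genes that were higher with both constructs and higher again with shAHR#3, as 1.78% of all genes were. The JAG2 difference fell to 0.20 without replicate 1 of shAHR#2 (edgeR adjusted p = 0.107) and to 0.11 without replicate 3 of shAHR#3 (edgeR adjusted p = 0.323), and the adjusted p ran from 0.00338 to 0.323 over 15 alternatives.

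NOTCH1, NOTCH2 and RBPJ were lower with shAHR#3 than with shAHR#2. The log2 difference was -0.32 ± 0.0583 for NOTCH1 (edgeR adjusted p = 2.07e-05), -0.09 ± 0.0246 for NOTCH2 (edgeR adjusted p = 0.00189) and -0.28 ± 0.0324 for RBPJ (edgeR adjusted p = 4.69e-09). The targets did not pass this test, and neither did NOTCH3. The ratio of shAHR#3 to shAHR#2, with 2 SE on either side, was 1.13 (0.899 to 1.42) for NOTCH3, 1.11 (1.01 to 1.23) for HES1, 1.53 (0.948 to 2.45) for HES4 and 0.842 (0.609 to 1.16) for HEY1. For HES4 in particular the interval still spans a difference of more than 2-fold.

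Levels of different genes were compared as CPM per kilobase of annotated exon, since longer transcripts collect more reads. The length pools the exons of all annotated transcripts of a gene and can exceed that of any single transcript. It was 15311 bases for RBPJ and 5487 bases for HEY1, where it equals the whole span of the gene. The order of genes and the sums over genes below depend on this length and may shift with another. In the control the order was NOTCH2 (24.3 CPM per kb), RBPJ (16.6), JAG1 (14.1), HES1 (8.15), NOTCH1 (2.61), HES4 (1.68), JAG2 (1.27), HEY1 (0.157), NOTCH3 (0.129) and DLL1 (0.00878). HEY1 and NOTCH3 were the only neighbors in it whose libraries overlapped. With shAHR#2 JAG1 (20.3 CPM per kb) stood above RBPJ (15.1) and JAG2 (3.47) reached the level of NOTCH1 (3.38), with overlapping libraries. With shAHR#3 JAG1 reached 27.9 CPM per kb, close below NOTCH2 at 29.4, and RBPJ (12.4) and HES1 (12.3) overlapped. HEY1 and NOTCH3 overlapped in every group.

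Per kilobase, the receptors summed to 27.0 ± 0.466 CPM (SD, n = 3) in control, 35.2 ± 0.374 in shAHR#2 and 32.6 ± 0.307 in shAHR#3 libraries. The ligand sum was 15.3 ± 0.569, 23.8 ± 0.868 and 32.0 ± 0.672 CPM per kb in the same order, and its libraries (31.2-32.5) overlapped those of the receptor sum (32.3-32.9) with shAHR#3. NOTCH2 made up 89.9%, 89.1% and 90.1% of the receptor sum, and NOTCH3 0.479%, 1.28% and 1.55%. JAG2 made up 8.31%, 14.6% and 12.8% of the ligand sum. Among the targets, HES1 held 81.6%, 90.6% and 89.6% of a sum that was 9.98 ± 0.631, 12.3 ± 0.471 and 13.8 ± 0.895 CPM per kb, while the HES4 share was 16.8%, 5.70% and 7.65%.

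**Figure D3:**
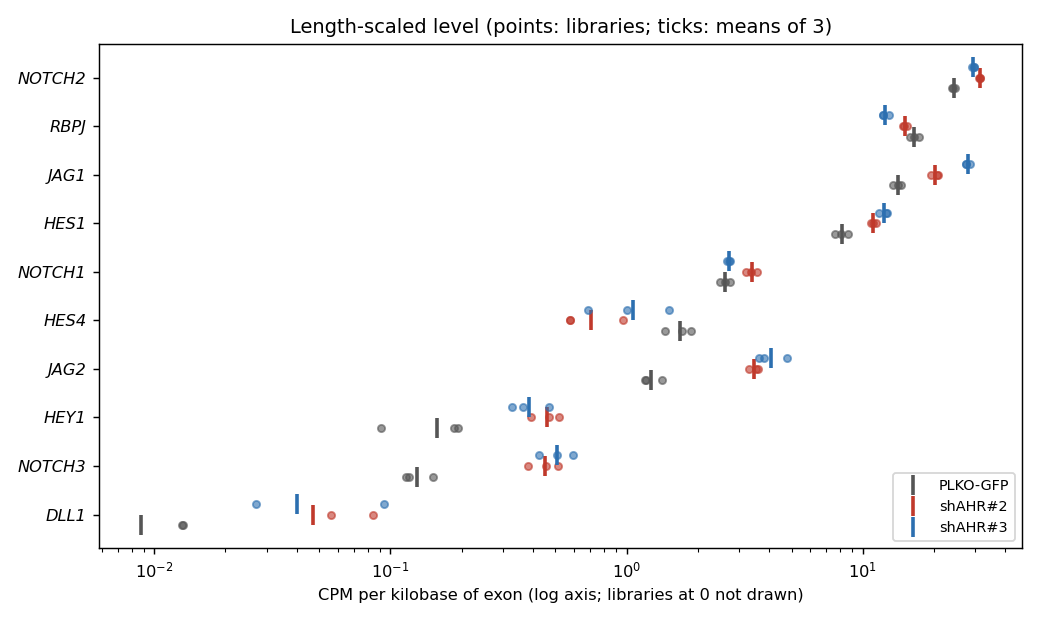
Level of each Notch pathway gene in CPM per kilobase of exon (horizontal log axis); points are libraries, ticks are means of 3 and libraries at 0 are not drawn. NOTCH2 is highest in every group, and JAG1 lies below RBPJ in the control (14.1 against 16.6) and above it with shAHR#3 (27.9 against 12.4). Exon lengths pool all annotated transcripts, and the order between genes depends on them.

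The rest of the pathway was read from 8 lists by role, 106 genes of which 91 were tested. With shAHR#2, 68 of the 91 were called (38 higher, 30 lower), or 74.7% where 65.8% of all genes were. With shAHR#3 it was 55 (38 higher, 17 lower), or 60.4% against 54.4%, and for the mean 70 (43 higher, 27 lower), or 76.9% against 64.3%. Most of each total is therefore at the background level. By direction, 38, 38 and 43 of 91 were higher, where 32.6%, 26.9% and 31.5% of all genes were. Lower were 30, 17 and 27 of 91, where 33.2%, 27.5% and 32.9% of all genes were. Their median log2 fold change was 0.05, 0.11 and 0.10, against 0 for all genes. Alike with each construct were 45 of 91, 30 higher and 15 lower, near the 44.5% of all genes that moved alike and with 21.9% of all genes higher with both. These shares are also the background for the counts of each list given below, which rest on 5 to 18 genes and are descriptions. Between the constructs 51 of 91 differed (56%, against 42.3% of all genes), 28 higher and 23 lower with shAHR#3.

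Among the other receptors and ligands, 5 of 10 were tested and 4 moved alike with both constructs (3 higher, 1 lower). EGFL7, a secreted protein that can bind Notch receptors, rose by 1.40 with shAHR#2 and by 0.64 with shAHR#3 on the log2 scale (edgeR adjusted p = 1.89e-16 and 3.52e-07). CCN3, a matricellular protein formerly named NOV, rose by 0.69 and 0.49 (edgeR adjusted p = 2.97e-05 and 0.00191). DLL4, a Delta-like ligand, rose by 2.02 and 1.31 (edgeR adjusted p = 0.000187 and 0.0212) at few reads. It had 3-7 counts in control, 14-18 in shAHR#2 and 10-12 in shAHR#3 libraries. DLK2, a noncanonical ligand, fell (log2 -0.83 and -0.90, edgeR adjusted p = 0.00116 and 0.000473). NOTCH4 and DLL3 had at most 2 counts, DLK1 and CNTN6 had none, and CNTN1 had at most 11.

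Among the other HES and HEY genes and their relatives, 5 of 10 were tested and 2 were higher with both constructs. BHLHE40, a related repressor of the circadian clock, rose by 1.05 and 0.90 (edgeR adjusted p = 9.07e-25 and 2.35e-22), and HES2 rose by 0.80 and 0.58 (edgeR adjusted p = 4.22e-09 and 3.25e-06). BHLHE41 rose by 0.41 with shAHR#2 (edgeR adjusted p = 0.000192) and stood at -0.05 with shAHR#3 (edgeR adjusted p = 0.709). HES3, HES5 and HELT had no counts, HEY2 had at most 3 and HES7 at most 10.

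Of 15 tested genes that have been described as Notch targets in some tissue, 5 were higher and 3 lower with both constructs. ID3, an inhibitor of basic helix-loop-helix factors, rose by 1.21 and 1.55 (edgeR adjusted p = 3.3e-13 and 1.28e-16), and CDKN1A, which encodes the cell cycle inhibitor p21, rose by 0.81 and 0.59 (edgeR adjusted p = 7.21e-14 and 4.89e-10). SNAI2, a transcription factor of epithelial-mesenchymal transition, fell (log2 -1.09 and -1.15, edgeR adjusted p = 9.32e-17 and 2.28e-17). BCL2, an inhibitor of apoptosis, had log2 fold changes of -0.76 and -0.62 (edgeR adjusted p = 7.78e-08 and 1.93e-06). TNFRSF11B, the decoy receptor osteoprotegerin, was called with neither construct and differed between them by 0.69 (edgeR adjusted p = 0.00798), or by 0.56 without replicate 2 of shAHR#2 (edgeR adjusted p = 0.0515).

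The enzymes that glycosylate Notch receptors were all 11 tested, 4 higher and 2 lower with both constructs. LFNG, the Lunatic fringe glycosyltransferase that shifts receptors between ligand classes, rose by 1.01 and 0.85 (edgeR adjusted p = 6.52e-13 and 8.24e-11), and the xylosyltransferase GXYLT1 rose by 0.67 and 0.29 (edgeR adjusted p = 6.08e-18 and 4.68e-08). POFUT1, which adds O-fucose to receptors, fell (log2 -0.91 and -0.28, edgeR adjusted p = 5.61e-24 and 1.17e-09), and POGLUT3, an O-glucosyltransferase, fell (log2 -0.38 and -0.41, edgeR adjusted p = 6.49e-14 and 8.89e-15). MFNG, Manic fringe, had 15-37 counts in control, 3-9 in shAHR#2 and 25-27 in shAHR#3 libraries, and the constructs differed by 1.68 on the log2 scale (edgeR adjusted p = 0.000805).

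Of the 12 proteases and tetraspanins tested, 2 were higher and 3 lower with both constructs. The gamma-secretase subunits NCSTN and APH1B fell, NCSTN with log2 fold changes of -0.39 and -0.12 (edgeR adjusted p = 6.85e-12 and 0.00334) and APH1B with -0.43 and -0.29 (edgeR adjusted p = 0.000264 and 0.0101). ADAM17, a sheddase, rose by 0.14 and 0.23 (edgeR adjusted p = 0.0107 and 0.000106). The weaker calls turned on single libraries: ADAM17 with shAHR#2 was 0.11 without replicate 2 of PLKO-GFP (edgeR adjusted p = 0.066) and 0.11 without replicate 3 of shAHR#2 (0.0704), and APH1B with shAHR#3 was -0.23, -0.24 and -0.21 without replicate 2 of PLKO-GFP, replicate 2 of shAHR#3 or replicate 3 of shAHR#3 (0.0688, 0.0546 and 0.0822). TSPAN15, a tetraspanin that partners ADAM10, rose by 0.55 with shAHR#3 (edgeR adjusted p = 1.01e-06) and had a log2 fold change of -0.16 with shAHR#2 (edgeR adjusted p = 0.138, or -0.28 with an adjusted p of 0.0132 without replicate 3 of shAHR#2).

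Of 18 tested genes of endocytosis, ubiquitination and turnover, 4 were higher and 3 lower with both constructs, which is 7 of 18 and not above the 44.5% of all genes. The epsin EPN2, an endocytic adaptor, rose by 0.65 and 0.51 (edgeR adjusted p = 1.24e-17 and 2.36e-14), and NUMB, an inhibitor of Notch signaling, rose by 0.54 and 0.37 (edgeR adjusted p = 2.36e-15 and 9.47e-11). The ubiquitin ligase NEDD4L fell (log2 -0.60 and -0.83, edgeR adjusted p = 1.86e-19 and 1.78e-23), and EPN1 had log2 fold changes of -1.005 and -0.37 (edgeR adjusted p = 4.44e-23 and 5.11e-11). NEURL1B, a ubiquitin ligase that acts on ligands, fell by 1.32 with shAHR#2 (edgeR adjusted p = 4.46e-16) and stood at -0.16 with shAHR#3 (edgeR adjusted p = 0.0662), where it passed at -0.21 without replicate 2 of PLKO-GFP (0.0365) and at -0.22 without replicate 3 of shAHR#3 (0.0195).

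Among 8 coactivators, 3 were higher and 0 lower with both constructs. MAML3, a Mastermind protein of the activator complex, rose by 1.89 and 0.90 (edgeR adjusted p = 2.76e-17 and 8.46e-08) and differed between the constructs by -0.99 (edgeR adjusted p = 2.04e-10), and the acetyltransferase EP300 rose by 0.28 and 0.16 (edgeR adjusted p = 6.5e-09 and 0.00024). Of 17 tested corepressor genes, 7 were higher and 3 lower with both. The demethylase KDM5A rose by 0.59 and 0.36 (edgeR adjusted p = 3.43e-15 and 2.55e-09). BEND6, an RBPJ-binding corepressor, fell (log2 -1.22 and -1.97, edgeR adjusted p = 9.59e-07 and 2.1e-10), and CTBP1 fell (log2 -0.54 and -0.32, edgeR adjusted p = 1.48e-14 and 7.04e-09). TLE2, a Groucho-type corepressor, had 15-22 counts in control, 3-7 in shAHR#2 and 11-22 in shAHR#3 libraries, and the constructs differed by 1.49 (edgeR adjusted p = 0.00585).

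**Figure D4:**
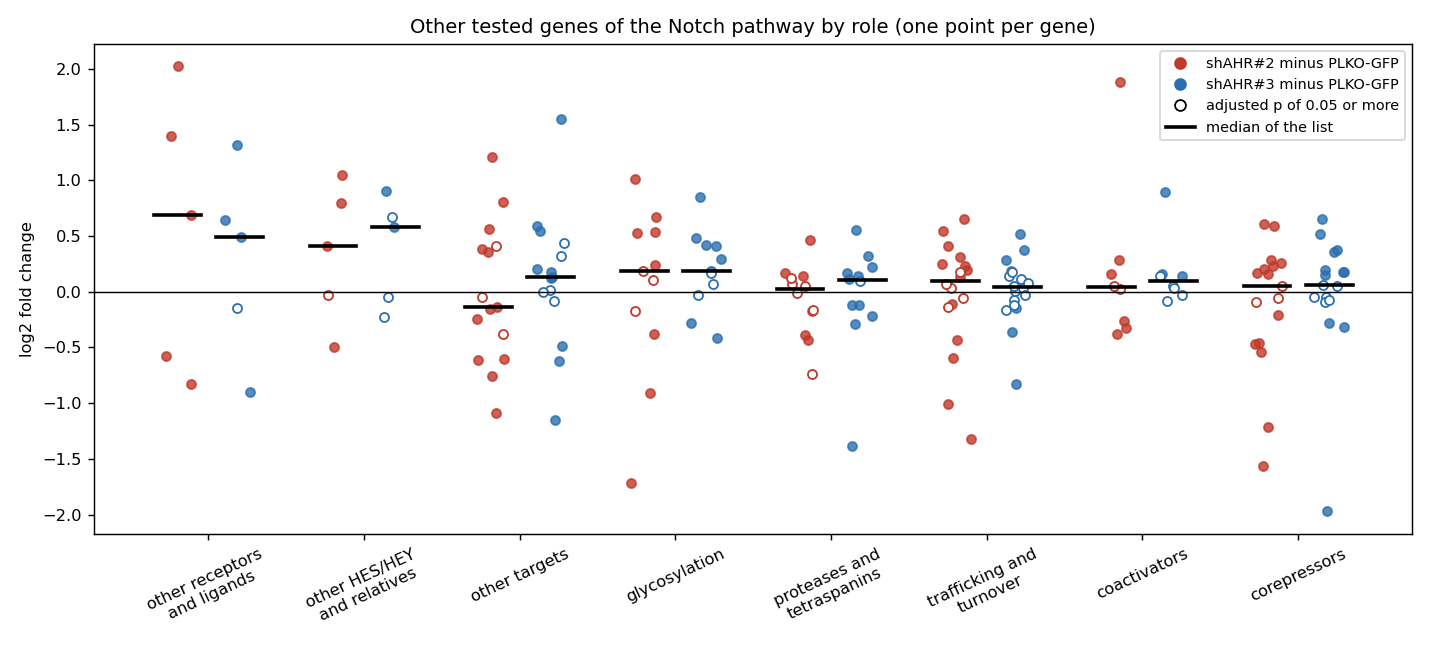
Log2 fold change (vertical axis) of the 91 other tested Notch pathway genes by role, shAHR#2 minus PLKO-GFP on the left and shAHR#3 minus PLKO-GFP on the right of each role; each point is a gene, open points have an edgeR adjusted p of 0.05 or more, and bars are list medians. The medians lie within 0.20 of 0 for the 6 roles from other targets to corepressors, and points lie on both sides of 0 in each role.

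For the 3 members with the largest change of the mean of both constructs, the genes with the most similar levels were sought by Pearson r of log2(CPM + 0.5) over the 9 libraries, as a description. NOTCH3 was most like CD164 (r = 0.989) and PLOD2 (r = 0.988), with 255 of 11837 genes above 0.95. JAG2 was most like SUN2 (r = 0.995) and ATP13A2 (r = 0.994), with 343 genes above 0.95. HEY1 was most like ZNF461 (r = 0.982) and LETMD1 (r = 0.979), with 43 of 11838 above 0.95. The 9 libraries share 3 groups, and any gene that rose with both constructs by similar amounts scores high on this measure.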

How the data were processed

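RNA sequencing of 9 MDA-MB-231 libraries was analysed, 3 each with PLKO-GFP, shAHR#2 and shAHR#3. The authors prepared stranded mRNA libraries from 500 ng of total RNA, sequenced them from a single end and aligned them to GRCh38.p13 with STAR, and they deposited gene-level read counts as whole numbers, not normalized. The submitters' processing notes also name FastQC, featureCounts and Subread. The annotation release and the strand setting are not given in the sources used here, so counts of overlapping, antisense and near-identical genes are uncertain.

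From these counts, genes were kept with filterByExpr (minimum count 10, minimum total 15, leaving 14274 of 60649) and TMM-scaled. The edgeR 4.0.16 quasi-likelihood test (R 4.3.3, limma 3.58.1) was fitted once to the 9 libraries without a block. Genes with a Benjamini-Hochberg adjusted p under 0.05 over all genes tested were called, and the standard error was the fold change divided by the square root of F. The common biological coefficient of variation was 2.96%, and the chi-square of replicate counts was 1.75-4.12 per degree of freedom. Intervals and limits cover counting error and the spread of these libraries only, since reads carry no molecular identifiers. Of the 10 genes, 8 exceeded the filter's 0.516 CPM in all 9 libraries, HEY1 in 8 and DLL1 in 0. Fits were tested on simulated data. There far fewer genes were changed than were called here, and all genes had the same spread. Error control in these data was therefore not tested by it.

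Positions and exon lengths are from GENCODE release 44, in which all 10 identifiers were found, and promoters are from RefSeq. Members and lists were chosen with earlier results of these data known. Besides the 10 genes and AHR, each list gave up to 2 rises and 2 falls called alike with both constructs (average log2 CPM of at least 1) and its largest difference between constructs, and 2 results that this rule selects are not reported here. DLL4, below that level, was named in addition. The list entry NOV was read as CCN3. Alternatives were DESeq2 1.42.0, its size factors, no filter, a mean of at least 50 counts, the compared groups alone, the replicate block, each library left out, an adjusted p under 0.01, an absolute log2 fold change of at least 1 and scaling by total counts.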

Additional observations from a re-analysis of the deposited data

Results flagged for a closer look

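By the direct edgeR test of shAHR#3 against shAHR#2, 5 of the 9 tested Notch genes differed between the constructs. Of all genes tested, 42.3% did. Whether these differences come from AHR depletion or from the constructs themselves was not tested. The log2 difference (shAHR#3 minus shAHR#2) was 0.46 for JAG1 and 0.24 for JAG2, which were higher with shAHR#3. It was -0.32 for NOTCH1, -0.09 for NOTCH2 and -0.28 for RBPJ, which were lower with shAHR#3. AHR itself was higher with shAHR#3 than with shAHR#2 by 0.19 on the log2 scale (edgeR adjusted p = 0.00283), or by 0.13 without replicate 2 of shAHR#3 (edgeR adjusted p = 0.0626). The JAG2 difference was 0.11 without replicate 3 of shAHR#3 (edgeR adjusted p = 0.323) and 0.20 without replicate 1 of shAHR#2 (edgeR adjusted p = 0.107).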

How the results depend on the processing

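The numbers of genes called stayed within 1.5 times under every alternative but 1. With an added absolute log2 fold change of at least 1, the Notch genes called of 9 were 4 with shAHR#2, 3 with shAHR#3, 3 for the mean of both and 0 between the constructs. The other pathway genes called were 12, 5, 7 and 3 of 91 in that order. Of all genes 11.8%, 6.73%, 8.25% and 3.71% passed, and the counts of the other pathway genes are near these shares. Same-numbered libraries did not deviate together (correlations -0.006 to 0.056), so the replicate numbers were not read as a pairing. With the replicate block HES4 with shAHR#3 passed at -0.67 (edgeR adjusted p = 0.0481), and it passed at -0.64 when only the compared groups were fitted (0.0478). The block changed no other call of a Notch gene. JAG2 between the constructs was 0.23 with DESeq2 (adjusted p = 0.0622). No tested Notch gene changed direction. A mean of at least 50 counts removed HES4 and HEY1. Among uncalled values of other genes, the sign turned when 1 library was left out for DLK2 between the constructs (range -0.22 to 0.17, highest without replicate 2 of shAHR#2), BCL2 between the constructs (-0.01 to 0.24, lowest without replicate 2 of shAHR#3), BHLHE41 with shAHR#3 (-0.10 to 0.02, highest without replicate 1 of PLKO-GFP) and MFNG with shAHR#3 (-0.33 to 0.31, highest without replicate 3 of PLKO-GFP). It also turned for TLE2 with shAHR#3 (-0.26 to 0.17, above 0 without replicate 2 of shAHR#3 and at 0.04 without replicate 2 of PLKO-GFP) and for TNFRSF11B for the mean (-0.09 to 0.04, above 0 without replicate 2 of shAHR#2 and at 0.01 without replicate 1 of PLKO-GFP). The cause was not tested. Scaled by total counts, NOTCH2 was 415 CPM in the control and 513 with shAHR#2, and RBPJ 225 with shAHR#2. Depth limits DLL1, HEY1, HES4 and NOTCH3, which had at most 108 reads in a library.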
